A study of Homo sapiens with 24 samples.

Results

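The m6A landscape of wild-type pancreatic progenitors (WT PP) consisted of 43312 peaks, every region of the list that set the m6A immunoprecipitates (IP) of these cells against their input RNA, out of 228472 peaks in the 6 lists of the series. The cells were derived from the MEL1 human embryonic stem cell line, given in the study's reporting as MEL1 INSGFP/W, a line with a GFP reporter at the insulin gene, carried the WT genotype for ALKBH5 and were differentiated in steps through endoderm to the progenitor stage. They belonged to batch 2, in which total RNA was fragmented and precipitated directly with a Millipore m6A antibody. rRNA was depleted from the input fragments before both kinds of fragment went into a stranded total RNA library kit. The list pooled 2 IP and 2 input libraries, so that each peak had 1 IP and 1 input read count, and no spread between libraries could be given. For comparison, A5-KO PP were progenitors of the same MEL1 line, protocol and batch that lacked the demethylase ALKBH5, with 55219 peaks. PP were progenitors of batch 1, with 29083 peaks, for which mRNA was first enriched for poly(A) tails and precipitated with a SYSY antibody. The other lists, hPSC, DE and hILO, came from batch 1 as well and were made like PP. Antibody, RNA, library kit and experiment changed together between the batches and cannot be told apart.

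N6-methyladenosine is placed on nascent mRNA by a complex of METTL3, METTL14 and WTAP, mostly at adenosines in the sequence DRACH, where D stands for any base but C, R for a purine and H for any base but G. It lies preferentially in long exons and around the stop codon, and it is read by YTH proteins that influence splicing, export, translation and decay. Other enzymes methylate structured RNAs. METTL16 modifies the U6 spliceosomal snRNA and hairpins of the MAT2A mRNA, METTL5 modifies the 18S rRNA and ZCCHC4 the 28S rRNA. Poly(A) selection removes most snRNA, rRNA and replication-dependent histone mRNA, which carry no poly(A) tail, so that a total RNA library can show peaks on them.

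The sites below show the sequence under WT PP peaks on the regulators and RNAs to which the results return. Each was read from the genome (build GRCh38) in the sense of the transcript, 5′ to 3′, with the motif in capitals. For the progenitor factors and NORAD the capitals mark the GGACT nearest the middle of the gene's peak with most IP reads.
NKX6-1 (chr4:84497740-84497764, minus strand, CDS): gctgctggccGGACTgccacgcttt
HNF4A (chr20:44430351-44430375, plus strand, 3UTR): ccttcttcagGGACTtgggtgggta
HES1 (chr3:194138315-194138339, plus strand, 3UTR): ggagagaagaGGACTtttttgatta
NORAD (chr20:36046270-36046294, minus strand, lncRNA): gtgtatgtcaGGACTtgttcattag
For MAT2A the capitals mark TACAGAGAA, an element of METTL16 substrates.
MAT2A (chr2:85543802-85543830, plus strand, 3UTR): tggcgtaggcTACAGAGAAgccttcaagc
MAT2A (chr2:85544889-85544917, plus strand, 3UTR): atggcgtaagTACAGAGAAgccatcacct

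The WT PP peaks lay on 14975 genes and held 59982995 IP reads and 19034654 input reads. Peaks of A5-KO PP held 38575826 and 12716287, and those of PP 30944774 and 6987612. Read counts set side by side below are not scaled for these totals, and a gene's count covers only the regions called in that list. A peak had a median of 235 IP reads (quartiles 83 and 862), 80 input reads (13 and 310) and 175 nt of exon (100 and 325). The deposited log2 enrichment, the IP over input estimate of the peak caller, had a median of 3.65 (quartiles 2.25 and 5.09). Of the genes, 5149 carried 1 peak, 7168 carried 2 to 4, and 2658 carried 5 or more. The reads were concentrated: the 100 peaks with most IP reads held 16.4% of them and the 1000 peaks with most held 41.9%. Each count is a pool, and reads without molecular identifiers are not independent molecules. Intervals given here are 95% Wilson intervals over numbers of peaks or genes that cover counting error only. They treat peaks or genes as independent and hold no spread between libraries.

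Coding genes carried most peaks and lncRNA genes most of the others. Peaks on coding genes numbered 36897, or 85.2% (84.9% to 85.5%), and held 90.9% of the IP reads. They lay on 11804 of 20046 annotated coding genes (58.9%). Peaks on lncRNA genes numbered 4715, or 10.9% (10.6% to 11.2%), on 2330 of 18866 lncRNA genes (12.4%). The lncRNA share was 19.8% in A5-KO PP (19.5% to 20.2%) and 8.96% in PP (8.63% to 9.29%). Depth moved with this: the median input of WT PP peaks was 26 reads on lncRNA genes and 94 on coding genes, and 22.4% of the lncRNA peaks had no input read. Pseudogenes held 1189 peaks.

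Peaks on small noncoding RNA genes were few, but their kind set the total RNA lists apart. They numbered 59 in WT PP (0.136%, 0.106% to 0.176%), 48 in A5-KO PP (0.0869%, 0.0656% to 0.115%) and 9 in PP (0.0309%, 0.0163% to 0.0588%). There were 10 in hPSC, 11 in DE and 19 in hILO (0.0603%, 0.0386% to 0.0941%), the last with an interval that overlaps that of A5-KO PP. Peaks were found on 41 snRNA genes in WT PP (2.16% of 1901 annotated) and 34 in A5-KO PP, against 1 in PP, 0 in hPSC, 0 in DE and 1 in hILO. The 41 genes became 9 at p below 1e-10 and 13 with at least 50 input reads. Of the snRNA genes with a peak in both total RNA lists, 30 of 30 had none in any of the 4 poly(A) lists.

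U6 snRNA, the catalytic RNA of the spliceosome, made up most of the snRNA genes. Copies of U6 accounted for 30 of the 41, and 28 of these 30 are named as pseudogenes. RNU6-1 itself (chromosome 15) had 703 IP and 36 input reads in a 100-nt peak, with a deposited log2 enrichment of 6.70. The log2 ratio of these counts was 4.25 (counting error 0.24). Copies of U6 are nearly identical, and a read that matched several was placed once, so that the copy a peak belongs to is uncertain. The sequence TACAGAGAA, shown above for MAT2A, was present on the sense strand in 22 of the 30 U6 peaks (73.3%) and in 184 of all 43312 WT PP peaks (0.425%). In A5-KO PP it was present in 17 of 24 U6 peaks. Since nearly all of a U6 gene lies under its peak, its presence there follows from the gene.

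Of 25 spliceosomal snRNA genes in the fixed list, 6 had a WT PP peak, against 2.16% of all annotated snRNA genes, and 4 had one in A5-KO PP and 0 in each of the 4 poly(A) lists. Besides RNU6-1 these were RNU6ATAC, the minor spliceosome counterpart of U6, with 386 IP and 272 input reads, RNU4-2 with 149 and 9, RNU5D-1 with 84 and 10, RNU5B-1 with 37 and 1, and RNU6-7 with 30 and 0. Only the RNU6ATAC peak had at least 50 input reads. None of the 13 annotated members of the list of other structured RNAs (7SK, 7SL, RNase P and MRP, telomerase, Y and vault RNAs) was placed under a peak in any list.

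Peaks on nuclear rRNA genes were placed in the total RNA lists and in none of the 4 poly(A) lists, whereas a mitochondrial rRNA gene had a peak in every list. In WT PP 4 nuclear rRNA genes and 8 rRNA pseudogenes had a peak and in A5-KO PP 2 and 3. RNA5-8SN3, a 5.8S gene on chromosome 21, had 15911 IP and 3982 input reads and a log2 enrichment of 3.91. RNA5S9, a 5S gene on chromosome 1, had 3049 IP and 76 input reads in WT PP and 248 and 111 in A5-KO PP. Both belong to families of near-identical copies. Depletion of rRNA is stated for the input fragments, so the ratio of IP to input on rRNA compares unlike preparations and was not read as methylation.

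Replication-dependent histone genes, whose mRNAs end in a stem-loop, did not follow the snRNA pattern. Of 71 such genes 21 (29.6%), or 8 at p below 1e-10 and 12 with at least 50 input reads, had a WT PP peak, against 16 in A5-KO PP, 13 in PP, 15 in hPSC, 8 in DE and 15 in hILO. The share of all coding genes with a peak was 58.9% in WT PP, 65.7% in A5-KO PP and 48% in PP, and the histone share was below it in these 3 lists. Unscaled read counts of single genes differed between the lists in both directions. H4C14 had 9736 IP and 1826 input reads in WT PP. In A5-KO PP it had 731 and 20, and in PP 463 and 78. H2AC25 had 7078 and 801 in WT PP, and 543 and 80 in PP. H2AC15 had 6392 and 1221 in WT PP and no peak in A5-KO PP or PP. H4C15 followed with 4280 IP reads, and H3C6, H4C3, H3C12, H2BC5, H2AC17 and H2BC4 had 504 to 618. H3C6 had 618 IP reads in WT PP but 1454 in A5-KO PP, and H2BC5 had 518 in WT PP but 728 in PP. Histone genes also have near-identical copies. Of 12 histone variant genes with poly(A) tails 9 had a peak, among them MACROH2A2, H2AZ2, MACROH2A1, CENPA, H3-3B, H2AZ1, H1-10 and H2AX, with 60 to 1993 IP reads. The other lists had 7 to 9 of these 12, and the share over all coding genes in WT PP was the 58.9% above. H2AJ, H3-3A and H3-5 had none. Of 10 factors that act in histone mRNA 3′ processing or transcription 9 had a peak, against 7 to 9 in the other lists and 58.9% of all coding genes in WT PP, led by SYMPK with 17477 IP and 3954 input reads, ERI1 with 9213 and 1701, LSM10 with 7501 and 2524 and CASP8AP2 with 6618 and 1550. CPSF2, NPAT, ZNF473, SLBP and LSM11 had 46 to 3900 IP reads, and CPSF3 had no peak.

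The mitochondrial genome carried peaks in both kinds of RNA. Of its 13 coding genes 10 (76.9%) had a peak in WT PP, against 58.9% of all coding genes, and 9 had one in A5-KO PP, 9 in PP, 9 in hPSC, 11 in DE and 10 in hILO. Of its 22 tRNA genes 1 had a peak in WT PP, against 0 in A5-KO PP, 3 in PP, 2 in hPSC, 2 in DE and 8 in hILO. The rRNA gene MT-RNR1 had 1 peak with 32 IP and 0 input reads. MT-ND4, a complex I subunit, had 42090 IP and 75626 input reads, more input than IP. MT-ND5, another subunit, had 11005 and 1985.

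Among all genes, 1252 had a peak in each total RNA list and in none of the 4 poly(A) lists, which was 9.48% (8.99% to 9.99%) of the 13210 genes with a peak in both total RNA lists. The number became 183 at p below 1e-10 and 366 with at least 50 input reads. By class these were 555 coding genes (5.18% of the coding genes in both lists), 462 lncRNA genes (24.5%), 186 pseudogenes (35.6%) and 37 small noncoding RNA genes (37 of 38). CDKN1A, the p21 inhibitor of cyclin-dependent kinases, had the most IP reads, 100176 in WT PP with 18456 input reads, and 16917 and 3749 in A5-KO PP. Its peak lay in the 3UTR on chromosome 6. LINC01854 followed with 77493 and 21964 in WT PP, and 38583 and 11544 in A5-KO PP. C20orf204 had 44369 and 10343, LINC01099 had 40318 and 63184, PTPRQ had 38823 and 6178, and ENSG00000254587 had 31222 and 5104. GPR160, NTN5, NRG2 and GABRG3 had 18349 to 25177 IP reads. In A5-KO PP some of these rested on few reads, with 123 IP and 1 input reads for LINC01099, 297 and 105 for ENSG00000254587, and 100 and 11 for NRG2. CDKN1A mRNA is known to be polyadenylated.

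The reverse was also seen. Of 8523 genes with a peak in all 4 poly(A) lists, 863 (10.1%) had none in WT PP, and 333 of these had one in A5-KO PP. EEF2, a translation elongation factor, had 132945 IP and 26928 input reads in PP, no WT PP peak, and 532 and 384 in A5-KO PP. PTMA had 61662 and 9668 in PP, and PRKCSH 51581 and 10238, with no WT PP peak for either. These genes were chosen after their values were seen, as the coding genes of this group with most IP reads in PP.

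The label of the cells was checked against marker genes, counted as those with a peak, which reports methylated and expressed RNA together. Of 20 pancreatic progenitor factors 19 (95%) had a WT PP peak, against 58.9% of all coding genes, and 19 had one in A5-KO PP, 19 in PP, 4 in hPSC, 10 in DE and 18 in hILO. ONECUT2, a liver and pancreas homeodomain factor, had 171334 IP and 35003 input reads over 12 peaks. FOXA1, a pioneer factor of endoderm, had 85454 and 12197. SOX9, which maintains progenitors, had 73923 and 19880, nearly all in 1 peak in the 5UTR. GATA4 had 58548 and 9478, FOXA2 34193 and 9066, and MNX1 12567 and 1508. GLIS3, HNF4A, HES1 and HHEX had 7535 to 11814 IP reads. PDX1, the master regulator of the pancreas, had 3275 and 1255, and NKX6-1, which marks progenitors competent for beta cells, had 7011 and 2744. NKX2-2 had no peak.

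**Figure D1:**
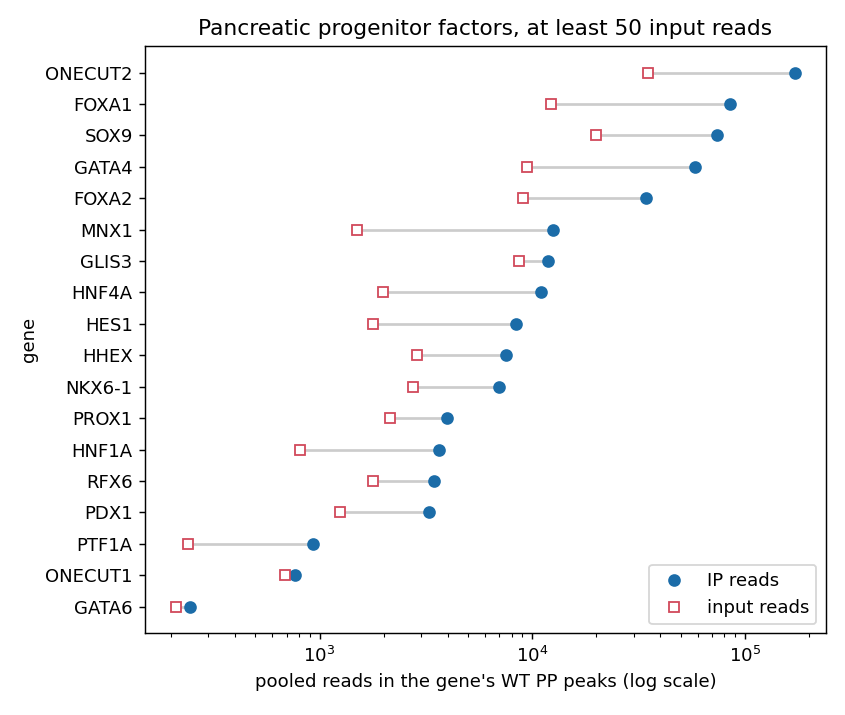
Points give the pooled IP reads and input reads (x axis, log scale) in the WT PP peaks of each of the 18 pancreatic progenitor factors with at least 50 input reads (y axis). IP reads ran from 247 for GATA6 to 171334 for ONECUT2.

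The peaks of a factor were not alike. NKX6-1 had 5, and the CDS peak that contains the printed GGACT had 4235 IP and 913 input reads with a log2 enrichment of 3.23, while its neighbour had 1595 and 1451 with 0.93. HNF4A also had 5, and the one printed above had 8103 and 1015 with 5.09. HES1, a Notch target, had 2, with 8399 IP and 1794 input reads together.

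Markers of other cells were present as well. Of 10 hepatic markers 9 had a peak, against 58.9% of all coding genes: FGA with 17777 IP and 5572 input reads, TTR with 8074 and 15675, APOB with 6703 and 854 over 13 peaks, APOA4 with 2856 and 768, TF with 1126 and 570, SERPINA1 with 1037 and 340, FGB with 277 and 71, APOA1 with 111 and 3 and AFP with 30 and 0. ALB, which defines hepatocytes, had none. A5-KO PP had a peak on 8 of these 10 genes, PP on 1, hPSC on 0, DE on 1 and hILO on 9. Of 8 intestinal and gastric markers 6 had a peak, as in A5-KO PP, against 4 in PP: VIL1 with 7350 IP reads, CDX2 with 1648, TFF1 with 1325, SOX21 with 981, MUC13 with 263 and CDX1 with 38. TFF3 and CLDN18 had none. The part of other cell types in the peaks of WT PP was not tested.

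The counts that follow stand against the 58.9% of all coding genes with a WT PP peak. Of 8 pluripotency markers, DPPA4 with 2498 IP reads, ZFP42 with 6953 and L1TD1 with 97 had a peak, and POU5F1, NANOG, SOX2, LIN28A and TDGF1 had none. Of 8 endoderm markers 6 had one, among them SOX17 with 2802 IP reads, LHX1 with 1759, CXCR4 with 630, CER1 with 309 and MIXL1 with 43, and EOMES and GSC had none. Of 12 endocrine markers 3 had a peak, among them CHGA, a granule protein, with 2958 IP reads and ISL1 with 123. INS, GCG, SST, PPY, NEUROG3, NEUROD1, PAX4 and INSM1 were among those without one. Of 9 mesenchymal markers COL1A1 with 777 IP reads, PDGFRA with 277, LUM with 205, PDGFRB with 110 and COL1A2 with 59 had one, and COL3A1, TWIST1, PRRX1 and DCN had none. Those 5 of 9 (55.6%) lay close to the share of all coding genes, and A5-KO PP had a peak on 9 of the 9 and PP on 6. Pluripotency, endoderm and endocrine markers with a peak numbered 3, 6 and 4 in A5-KO PP, and 3, 2 and 3 in PP. In the same order they numbered 7, 3 and 3 in hPSC, 7, 8 and 1 in DE, and 2, 2 and 10 in hILO.

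Genes of the m6A pathway carried peaks themselves. Of 12 writer genes 11 had one, against 58.9% of all coding genes, and 10 to 12 had one in each of the other lists. ZC3H13, an organiser of the writer complex, had 35825 IP and 12356 input reads over 12 peaks. RBM15, which guides the complex to RNA, had 15794 and 3236, VIRMA 9588 and 2931, CBLL1 6235 and 1515, METTL16 6149 and 1374, RBM15B 4763 and 1682, METTL3 4293 and 1873, and WTAP 4219 and 1335. PCIF1 had 2094 IP reads, METTL14 had 625 and ZCCHC4 had 66 with no input read. METTL5 had no peak in WT PP, 2 in A5-KO PP and 1 in PP. The erasers FTO and ALKBH5 had 1521 and 836 IP reads. Of 11 readers 10 had a peak, against 10 or 11 in each of the other lists, led by YTHDC2 with 6072, YTHDF3 with 4724, IGF2BP3 with 3684, IGF2BP2 with 2031 and YTHDC1 with 1570. FMR1, YTHDF1, IGF2BP1, HNRNPA2B1 and YTHDF2 had 152 to 979, and HNRNPC had none.

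MAT2A, which makes the methyl donor S-adenosylmethionine, had 2 peaks in its 3UTR, with 31849 IP and 10470 input reads together. The peak from 85543797 to 85543971 had 13436 and 7054 and a log2 enrichment of 3.63, and that from 85544547 to 85545281 had 18413 and 3416 and 5.17. Both contained TACAGAGAA, as printed above. In A5-KO PP the gene had 600 and 254 reads over 3 peaks, and in PP 6238 and 1909 over 4.

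Transcripts of immediate early genes, which are transient and respond to handling, had peaks on 15 of 16 members, against 58.9% of all coding genes, and 14 to 16 had one in each of the other lists. JUND had 56640 IP and 12946 input reads, ATF3 29573 and 3373, JUNB 13542 and 3269, ID3 12317 and 4560, DUSP1 12203 and 5892, FOS 10416 and 4503, and ID1 9884 and 6153. KLF10, IER5 and JUN had 4245 to 5954 IP reads. In PP, FOS had 138 IP and 16 input reads and JUNB 270 and 43, while MYC had 35750 in PP and 2935 in WT PP. Of 12 genes of glycolysis and other constant functions 6 had a peak, against 5 to 10 in the other lists, LDHA with 8598 IP reads, TPI1 with 961, PKM with 409, ACTB with 384, EEF1A1 with 283 and TUBA1B with 253. GAPDH, ENO1, PGK1, ALDOA, EEF2 and PPIA had none. Of 85 ribosomal protein genes, matched by symbol and so including RPL7L1, 34 (40%) had a peak, against 27 to 50 in the other lists, led by RPL28 with 43990 IP and 15860 input reads. Of 508 ZNF zinc finger genes 415 (81.7%) had one, against the 58.9% of all coding genes.

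Of 20 annotated nuclear and other lncRNAs of the fixed list 13 had a peak, against 12.4% of all lncRNA genes, and 10 to 14 had one in each of the other lists. KCNQ1OT1, the imprinted antisense transcript, had 52 peaks with 10413 IP and 3547 input reads, against 50 peaks in A5-KO PP, 7 in PP, 1 in hPSC, 1 in DE and 31 in hILO, where they held 42758 IP reads. TUG1 had 9316 and 2310, SNHG14 8379 and 4212, LINC00261, which neighbours FOXA2, 6933 and 1237, and NORAD 6221 and 774. MALAT1, NEAT1, OIP5-AS1, MEG3 and DANCR had 226 to 1771 IP reads.

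The 10 genes with most IP reads held 7.50% of the IP reads and 11.2% of the input reads in peaks. FOXD1, a forkhead factor, had 2070191 IP and 370033 input reads. Its 150-nt 3UTR peak from 73446515 to 73446664 on chromosome 5 alone had 1800217 IP and 220327 input reads, 3.00% of all IP reads in peaks, while FOXD1 had 154 and 27 in A5-KO PP and 121187 and 22067 in PP. IGF2, a fetal growth factor, had 787781 IP and 980510 input reads, against 9990 and 5148 in A5-KO PP and 2656204 and 714557 in hILO. ITPRIPL1 had 280916 and 489421, against 926 and 1008 in A5-KO PP. Its IP reads were 209511 in hPSC and 201470 in DE. MRTFB had 220201 IP reads here against 6650 in A5-KO PP, BOD1L1 209341 against 29838 and AJM1 196555 against 2175. AHNAK had 187443 against 95781, DOK4 181298 against 5469 and ONECUT2 171334 against 128940. By the ratio of their IP reads, ONECUT2 differed least and FOXD1 most of these genes between WT PP and A5-KO PP. These sums cover different regions in the lists. The windows with most IP reads of FOXD1, MRTFB (197624) and AJM1 (190333 in 50 nt) lay under no peak of any other list. For BOD1L1 (186348) 20% of the window lay under an A5-KO PP peak.

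The genes with most peaks were led by TTN. TTN, the muscle titin gene and the longest coding sequence, had 95 peaks with 68578 IP and 18521 input reads, against 121 peaks in A5-KO PP, 13 in PP, 5 in hPSC, 47 in DE and 5 in hILO. It was followed by KCNQ1OT1 with 52, XACT with 40, DST with 34 and PCLO with 26. ZFHX3, RNF213 and AHNAK2 had 25 each, and CFLAR had 24.

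Enrichment depended on the depth of the input. Peaks without an input read numbered 4997, and their log2 enrichment had a median of 9.00 with quartiles of 0.83 and 10.18, so that they fell into very high and very low values. With 1 to 9 input reads the median was 4.89, and in the groups that start at 10, 50, 200 and 1000 reads it was 3.40, 3.38, 3.57 and 3.71. The share of peaks with a DRACH site was 90.7% without an input read and 90.6% at 1000 or more, with 89.6% the lowest of the 6 groups. Where the input held 50 reads or more, the deposited enrichment fell from a median of 3.99 at 30% to 35% GC to 2.63 at 70% to 75%, whereas the log2 ratio of the pooled counts rose from 1.12 to 1.65. The direction with GC content therefore depends on the scale of enrichment.

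**Figure D2:**
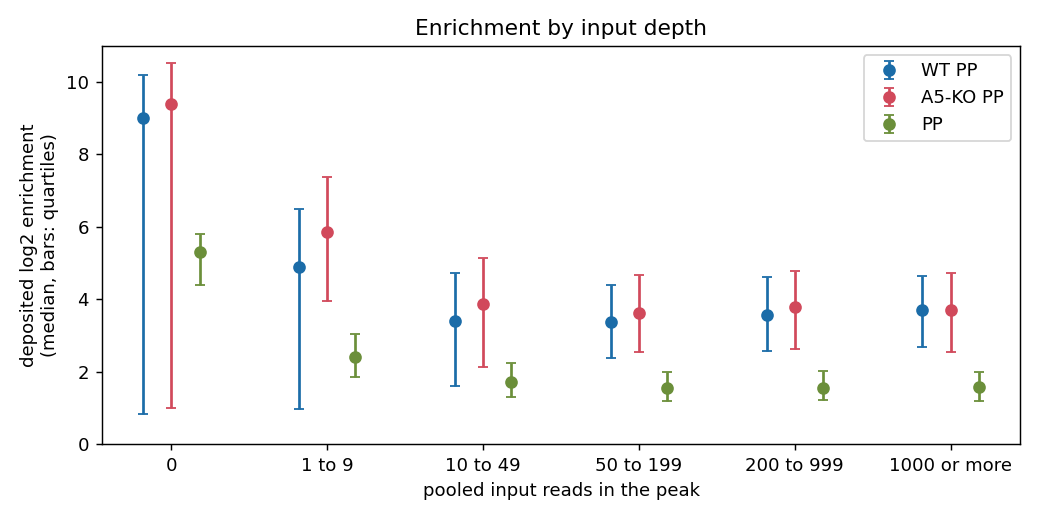
Points give the median deposited log2 enrichment (y axis) and bars its quartiles for peaks grouped by pooled input reads (x axis), in WT PP, A5-KO PP and PP. In WT PP the median was 9.00 without an input read and between 3.38 and 3.71 from 10 input reads on.

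The highest enrichments, taken over peaks with 50 or more input reads, were on ZNF326 (10.54, with 52888 IP and 290 input reads in 75 nt of CDS) and on the snoRNA host SNHG30 (9.53, with 126526 and 1198). ANKRD11, a chromatin regulator, followed with 8.30, DCLRE1C, the Artemis nuclease, with 8.20, GNRHR2 with 8.17, and ENSG00000271945 with 8.04. ENSG00000278915, GOLGA5, FAXC and NR5A2 had 7.85 to 7.95. The SNHG30 window resembles 7SL RNA and so Alu repeats, where the placement of reads is uncertain. No A5-KO PP peak overlapped the ZNF326 or the SNHG30 region, but over its 3 peaks ZNF326 had 39753 IP and 237 input reads in A5-KO PP, against 53166 and 674 over 3 peaks in WT PP. The ANKRD11 region was fully covered by a peak in each of the other 5 lists, and the DCLRE1C region in A5-KO PP alone, with 1288 IP and 160 input reads.

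On coding transcripts 31303 WT PP peaks could be placed by their midpoint. Peak midpoints lay in the CDS in 48.9% (15294 peaks), in the 3UTR in 44.1% and in the 5UTR in 7.08%. The isoforms themselves consisted of 42.8% CDS, 50.6% 3UTR and 6.60% 5UTR bases. Peaks in the 5UTR had the lowest median deposited enrichment, 2.92, against 3.61 in the CDS and 3.74 in the 3UTR, the highest median GC content, 62.7%, and a DRACH site in 80.3%. The order of enrichment was not kept on the log2 ratio of pooled counts, whose median was 1.97 in the 5UTR, 1.94 in the CDS and 1.97 in the 3UTR. The first 100 nt of the transcript, where the cap-adjacent m6Am would lie, held 670 peaks (2.14%). Of these 69.0% had a DRACH site, at a median GC content of 66.4%. The shares with a DRACH site were not adjusted for GC content or peak length.

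Long internal exons stood out. Internal exons of at least 400 nt held 15.3% of the placed midpoints (14.9% at the lower bound) but 7.04% of exonic bases, a ratio of 2.18. Shorter internal exons held 16.1% of midpoints and 26.8% of bases, a ratio of 0.602. Last exons held 56.6% of midpoints and 56.7% of bases, and first exons 9.03% and 7.29%. Internal exons of at least 400 nt made up 15.0% of midpoints in A5-KO PP and 17.2% in PP, so their share was not particular to WT PP. Short internal exons made up 24.4% of midpoints in A5-KO PP and 18.7% in PP.

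**Figure D3:**
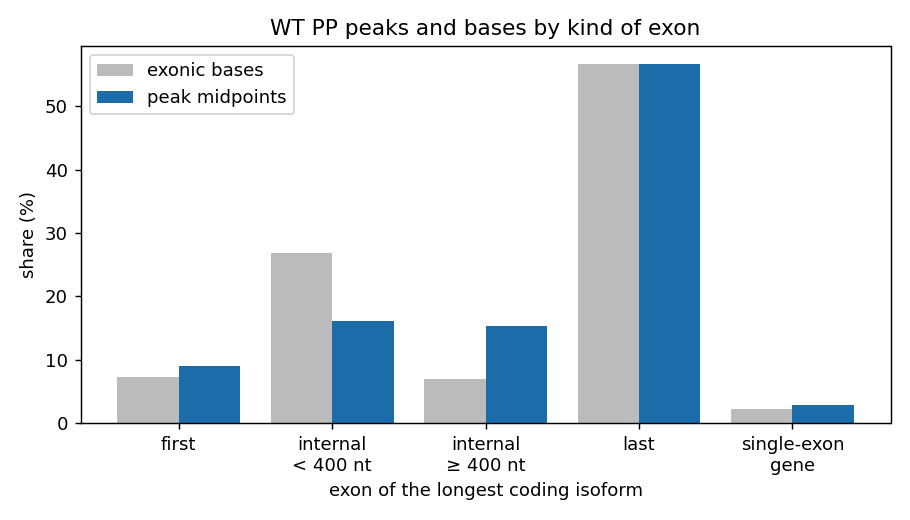
Bars give the share (y axis, %) of exonic bases and of WT PP peak midpoints in first exons, internal exons below and from 400 nt, last exons and single-exon genes (x axis). Internal exons from 400 nt on held 15.3% of midpoints and 7.04% of bases.

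Sequence under the peaks was compared with exons of the same genes outside peaks. DRACH occurred 21.7 times per kb of peak and 18.1 times outside, a ratio of 1.20 on the sense strand, against 0.864 on the antisense strand. Of the 18 sequences that DRACH covers, GGACT had the highest ratio, 1.54 (0.998 antisense), followed by GGACA with 1.46, AGACT with 1.37 and AAACC with 1.33. TAACT, with 0.880, and TAACA, with 0.885, were the lowest. GGACT also ranked first in A5-KO PP, with 1.40, and in PP, with 1.55. Similarity to 7SL RNA, from which Alu repeats derive, was found on the sense strand in 687 WT PP peaks (1.59%, 1.47% to 1.71%), in 1.51% of A5-KO PP peaks and in 0.729% of PP peaks (0.637% to 0.833%). On the antisense strand it was found in 1.08%, 1.68% and 0.952%.

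Sharing between the lists differed by position on the transcript. A shared WT PP peak is one with over 50% of its exonic bases under same-strand peaks of the other list. This held for 50.0% of all 43312 peaks with A5-KO PP and 22.4% with PP. It held for 32.4% with hPSC, 27.1% with DE and 27.4% with hILO, so that PP, the same stage, had the lowest share. The lists held 55219 peaks in A5-KO PP, 36659 in hPSC, 32680 in DE, 31519 in hILO and 29083 in PP. The shares were not adjusted for the number or length of these peaks. Peaks of WT PP in internal exons of at least 400 nt were shared with A5-KO PP in 63.8% and those within 200 nt of the stop codon in 61.5%, but those in short internal exons in 39.6% and in the 5UTR in 34.9%. With PP these shares were 30.8%, 33.5%, 20.5% and 15.9%. By input reads, the share with A5-KO PP lay between 48.5% and 51.6% over the 6 groups, while that with PP was 20.3% without an input read, 19.2% with 1 to 9 and 27.5% with 1000 or more. Of 59 peaks on small noncoding RNA genes 40 (67.8%) were shared with A5-KO PP and 1 (1.69%) with PP, and of the lncRNA peaks 49.8% and 14.7%. Of the 7400 peaks shared with both lists 97.6% had a DRACH site, against 84.1% of the 19357 shared with neither, while their median input reads were 102 and 75. Whether a peak holds a site also depends on its length and GC content, for which these groups were not matched.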

How the data were processed

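Per the labels and the study's methods, the authors used fastp for trimming, HISAT2 for alignment to GRCh38 with 1 alignment kept a read, and exomePeak2 to call peaks over all libraries of a group at once. Versions are not given here. The deposited list holds, per peak, the IP and input read counts, a log2 enrichment and a p-value. Its adjusted p-value was not used. The smallest deposited log2 enrichment was 0.59 and the largest p-value 0.0469. The study's methods name a p below 1e-05 as the cut-off. In the deposited list 54.3% of peaks met it and 45.7% did not, and all were kept. Columns of per-sample values without a match numbered 0.

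Each peak was given the listed GENCODE 44 gene on its strand with most exonic overlap, ties going to coding, then lncRNA, then named and shorter genes. Peaks without such overlap, 355 (0.820%), were left out of gene counts. Midpoints were placed on the longest coding isoform. Counting error is the standard error of the log2 ratio from Poisson counts. Motifs were counted in exonic sequence, and similarity to 7SL with blastn 2.17.0 (e-value 1e-05). The motif count was tested on simulated sequences. Python 3.11.15, pandas 2.3.3, scipy 1.17.1 and pysam 0.24.0 were used. No test between conditions was possible without values per library. Genes of a list were named by their IP reads, up to 10, and in full for lists of at most 12. The 10 genes with most IP reads, the 10 with most peaks and the 10 most enriched peaks were added. Alternatives were stricter p, ratio and input limits, other isoforms, motifs, pseudocounts and overlap rules. The members and lists were chosen with earlier results of these data known. Some genes and sequences that these rules name are not reported here.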

Additional observations from a re-analysis of the deposited data

How the results depend on the processing

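No paired analysis was possible because the list pools its libraries, and for the same reason no library could be left out and no count model was fitted. The cause of the changes was not tested. The 43312 peaks became 14522 at p below 1e-10 and 25183 with at least 50 input reads. The lncRNA share became 10.4% at an IP/input of at least 3, 7.72% at p below 1e-10 and 7.51% with at least 50 input reads, and the small noncoding RNA share 0.103% and 0.0834% under the p and input limits. The 1252 genes of the total RNA lists became 183 and 366, the 41 snRNA genes 9 and 13, and the 21 histone genes 8 and 12. Counting any overlap, the CDS held 59.9%, the 3UTR 50.5% and the 5UTR 10.4% of placed peaks. With at least 50 input reads these were 49.9%, 42.6% and 7.45%, and on the Ensembl canonical isoform the CDS held 50.1% and the 5UTR 6.26%. The ratio of motif densities was 1.44 with GGAC in place of DRACH, and for DRACH 1.18 with at least 50 input reads and 1.19 at p below 1e-10. The median enrichment was 2.03 as a log2 ratio of counts with a pseudocount of 1, 1.79 with a pseudocount of 10, and 3.51 with at least 50 input reads. Per kb of peak, 2 of the 10 genes with most IP reads remained. The share of peaks shared with A5-KO PP was 60.4% with any overlap, 39.4% with reciprocal overlap and 50.7% with at least 50 input reads, and with PP 35.5%, 16.4% and 23.8%. Progenitor factors with a peak numbered 16 and 18, and hepatic markers 7 and 7, at p below 1e-10 and with at least 50 input reads. Of the 41 snRNA peaks 28 had fewer than 50 input reads, which limits their enrichment.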
